A study of Homo sapiens with 16 samples.

Results

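The collagen and matrix genes described here are 7 genes of the extracellular matrix followed in 4 human acute myeloid leukaemia (AML) cell lines after azacitidine (AZA): the collagen genes COL14A1 and COL24A1, the secreted collagen-repeat gene CTHRC1, the crosslinking enzyme gene LOXL1, the mineral-binding protein genes MGP and SPP1, and the collagenase gene MMP1. They are 7 of the 19775 genes with a probe set of their own on these Affymetrix whole-genome arrays, and they were selected on their AZA minus vehicle differences in earlier results of the same data. Their differences between AZA and vehicle are therefore given as descriptions, with no test. Where a gene has several probe sets, the one with the highest average signal stands for it, and the 7 genes have 12 probe sets in all.

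The lines were AML-193 (monocytic), HNT-34, KG1a (with features of early progenitors) and HL60 (promyelocytic). Each received DMSO as vehicle, or 0.5 µM AZA on each of 3 days, and all were then kept without drug for 4 days in RPMI medium with unlabelled ("light") lysine and arginine. Each of the 8 groups has 2 arrays, and nothing in the labels says that these came from separate cultures, so the spread and the p-values cover the difference between these arrays only, which may be technical. AZA resembles cytidine, enters RNA and DNA, and binds DNA methyltransferases so that methylation is lost as cells divide, and the study asked how it affects the control of DNA methylation. Methylation itself is not analysed here.

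The matrix is a network of secreted proteins. Fibril-forming collagens assemble into ropes after their ends are trimmed, other collagens decorate those fibrils, lysyl oxidases crosslink collagen and elastin, and matrix metalloproteinases cut the network again. Blood cells make little fibrillar collagen, but monocytes and macrophages do make osteopontin, several metalloproteinases and their inhibitors, and leukaemic cells bind matrix through integrins and CD44. In arrays of whole cultures, a change in the share of cells that make a transcript and a change in transcript per cell cannot be told apart.

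The identity of the cultures was read from marker lists. The mean level over 12 leukaemic and myeloid genes, among them PTPRC, SPI1 and MYB, lay between 10.21 and 11.47 log2 units on every array. All 12 reached the array median in KG1a and HL60, and all but MPO in HNT-34. In AML-193 10 reached it with vehicle (not KIT and FLT3) and 11 with AZA (not KIT). They also moved with AZA. Called higher and lower were 7 and 0 in AML-193 and 3 and 6 in HNT-34. In KG1a these were 3 and 1, and in HL60 5 and 6. With the RNA integrity covariate (below) AML-193 had 2 and 0 and HL60 3 and 1. The shares of all genes called are given with the matrix lists. The mean over 18 fibroblast and mesenchymal markers lay between 6.24 and 6.56, and the same 6 of them (COL1A1, DCN, THY1, ACTA2, TAGLN and FBLN1) reached the array median (6.73) in all 8 groups, while the other 12, including COL3A1, LUM, PDGFRA and FAP, did so in none. Of the 6 fibroblast markers tested, 3 were called higher and 0 lower in AML-193, with a median difference of 0.24. Among all genes tested 20.7% were higher there. In HNT-34 the counts were 1 and 0, in KG1a 0 and 0, and in HL60 0 and 2. With the RNA integrity covariate they were 0 and 0 in both AML-193 and HL60. The mean of the list in AML-193 was 6.24 to 6.27 with vehicle and 6.37 to 6.39 with AZA. Macrophage markers moved with treatment in AML-193: 3 of 13 reached the array median with vehicle and 10 with AZA, and the mean of the list was 6.26 to 6.33 with vehicle and 7.16 to 7.19 with AZA. Of the 9 macrophage markers tested, 6 were called higher in AML-193 (20.7% of all genes tested were), with a median difference of 1.11. With the RNA integrity covariate described next, 2 of the 9 were called higher, with a median of 0.67. With it 216 of all 14049 genes were called higher there. The part of these markers in the AML-193 results below was not tested. RNA integrity was read as the 3′ minus 5′ difference (log2) between control probe sets for ACTB and GAPDH, which is larger when RNA is degraded, was 1.27 ± 0.463 (SD, n = 2) in AML-193 with vehicle and 0.198 ± 0.0433 with AZA, but 0.0443 ± 0.0116 in HL60 with vehicle and 0.722 ± 0.163 with AZA. In HNT-34 and KG1a all group means lay between -0.102 and 0.0587. Values of the members in AML-193 and HL60 with this signal as a covariate are given beside the others, as are the list counts. In both lines the signal did not overlap between arms. It was 0.939 to 1.59 with vehicle and 0.168 to 0.229 with AZA in AML-193. In HL60 it was 0.0361 to 0.0526 and 0.607 to 0.837. The signal and treatment are thus poorly separated there, and the covariate widens the standard errors. For COL14A1 these were 0.15 without it, and 0.31 in AML-193 and 0.22 in HL60 with it.

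The members and lines with a difference of at least 2-fold were these. COL14A1 was 109-fold higher in KG1a, 29.4-fold in HL60 and 5.74-fold in HNT-34. MGP (9.49-fold) and LOXL1 (3.27-fold) were higher in HNT-34, SPP1 (13.5-fold) and MMP1 (6.65-fold) in AML-193, and CTHRC1 (5.98-fold) and SPP1 (2.30-fold) in KG1a. COL24A1 went the other way in KG1a, where it was 2.26-fold lower. These folds are ratios of RMA signals. For COL14A1, MGP, CTHRC1 and MMP1 the vehicle signal is low and carries no detection call, so they are not ratios of transcript amounts.

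**Figure D1:**
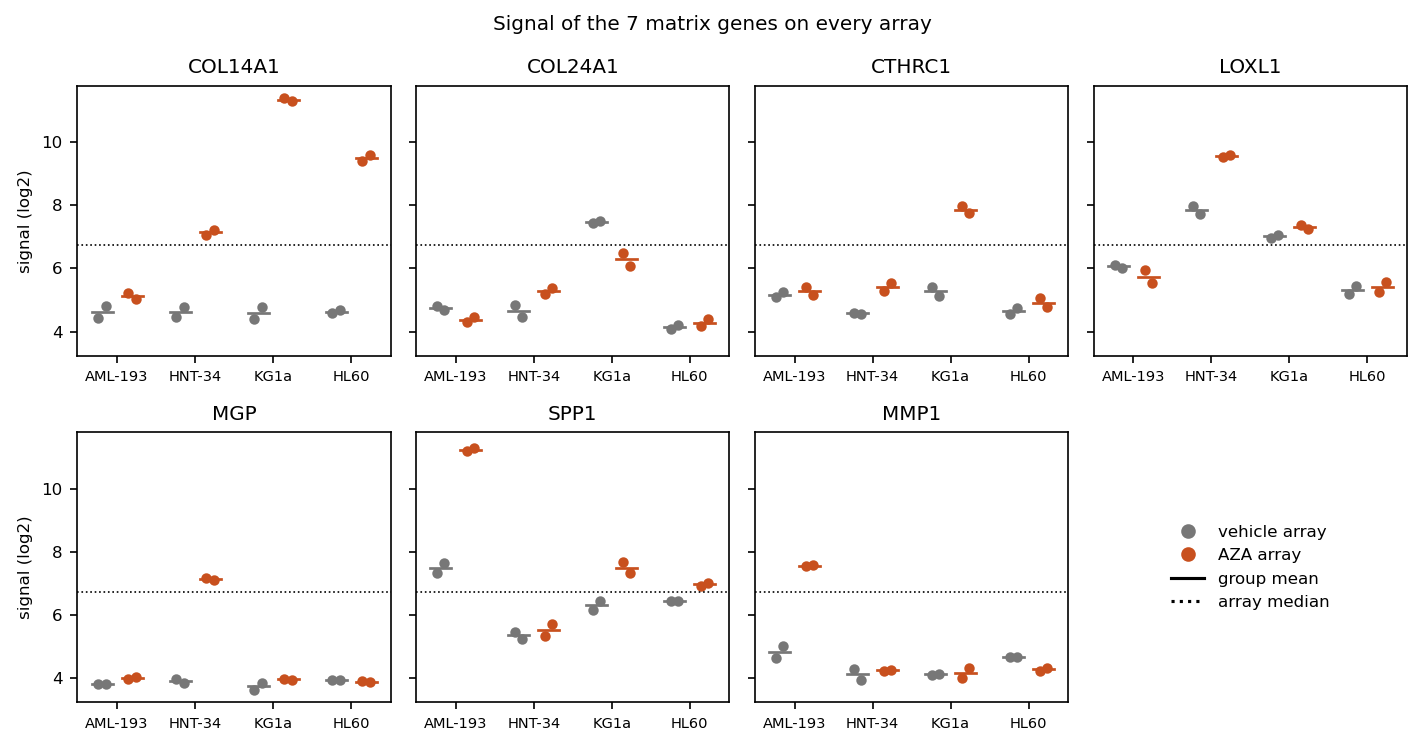
Signal (log2, vertical axis) of the 7 genes on each of the 16 arrays, by cell line; grey points are vehicle arrays, orange points AZA arrays, short lines group means and the dotted line the array median of 6.73. COL14A1 starts near 4.6 in every vehicle group and reaches 11.35 in KG1a with AZA, while MGP and MMP1 leave the low range in a single line each.

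With vehicle, 4 of the 7 genes (COL14A1, CTHRC1, MGP and MMP1) had group means under the array median in all 4 lines, as did 352 of the 14049 genes tested (2.51%). All 7 passed the filter on dim genes, which asked for a signal at the array median on at least 2 arrays, but these 4 passed it through AZA arrays alone, so they had to differ. COL24A1 passed through its 2 KG1a vehicle arrays alone, so its KG1a AZA arrays had to lie below those. In AML-193 both AZA arrays lay above both vehicle arrays for 4 members and below for 2, against 35.9% and 33.4% of all genes tested. The counts were 5 above and 0 below in HNT-34 (35.2% and 33.3% of all genes), 5 and 1 in KG1a (28.8% and 23.5%), and 3 and 2 in HL60 (41.2% and 28.3%). At least 2-fold higher were 2 members in AML-193 (1.99% of all genes), 3 in HNT-34 (2.26%), 3 in KG1a (0.947%) and 1 in HL60 (2.17%). At least 2-fold lower were 1 member in KG1a (0.0712%) and 0 in AML-193 (1.04%), HNT-34 (1.18%) and HL60 (1.32%). Nothing is read from these shares, since the same contrasts chose the members.

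**Figure D2:**
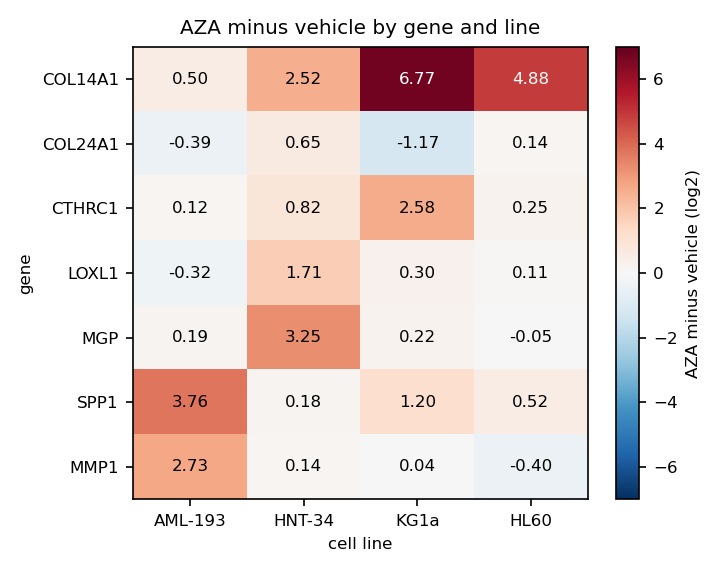
AZA minus vehicle (log2) for the 7 genes (rows) in the 4 lines (columns), each cell the difference of 2-array means; red is higher and blue lower after AZA. COL14A1 is the only row with values of 2.52 or more in 3 lines, and the largest values of MGP, SPP1, MMP1 and CTHRC1 each stand in 1 line.

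COL14A1 encodes collagen XIV, a collagen that does not form fibrils itself but lies along their surface. With vehicle its signal was alike in the 4 lines, with means of 4.62 ± 0.263 in AML-193, 4.62 ± 0.229 in HNT-34, 4.58 ± 0.272 in KG1a and 4.63 ± 0.0705 in HL60 (log2, SD, n = 2), and no order among these can be drawn. In KG1a the vehicle arrays read 4.39 and 4.77 and the AZA arrays 11.39 and 11.31. In HL60 they read 4.58 and 4.68 with vehicle and 9.42 and 9.60 with AZA. In HNT-34 they read 4.46 and 4.79 with vehicle and 7.06 and 7.23 with AZA. The 2 arms are thus far apart in these 3 lines, and KG1a with AZA lies above HL60 with AZA, which lies above HNT-34 with AZA, with no overlap between arrays of these 3 groups. In AML-193 the vehicle arrays read 4.44 and 4.81 and the AZA arrays 5.22 and 5.03, all under the array median.

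The differences of COL14A1, AZA minus vehicle, were 6.77 in KG1a, 4.88 in HL60, 2.52 in HNT-34 and 0.50 in AML-193, each ± 0.15 (standard error of the limma fit over all 16 arrays). The KG1a value was the largest of all 14049 genes tested in that line, and the HL60 value the fifth largest in HL60 (rank 5). With the 3′ minus 5′ covariate the HL60 difference was 5.25 ± 0.22 and the AML-193 difference -0.08 ± 0.31. In AML-193 its sign thus depends on that choice, and with the covariate it is within 1 standard error of 0. The gene has 4 probe sets, and they differ. 228750_at gave 5.85 in KG1a, 3.16 in HL60, 1.47 in HNT-34 and 0.13 in AML-193. 216866_s_at gave 1.24, 0.09, 0.16 and 0.34 in the same order of lines, and 216865_at gave 0.84, -0.01, 0.17 and -0.05. The order KG1a, HL60, HNT-34, AML-193 was therefore seen with 212865_s_at and 228750_at, and not with the others, of which 216865_at reached the array median on none of the 16 arrays. When the 4 probe sets were averaged, the differences were 3.68 in KG1a, 2.03 in HL60, 1.08 in HNT-34 and 0.23 in AML-193.

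**Figure D3:**
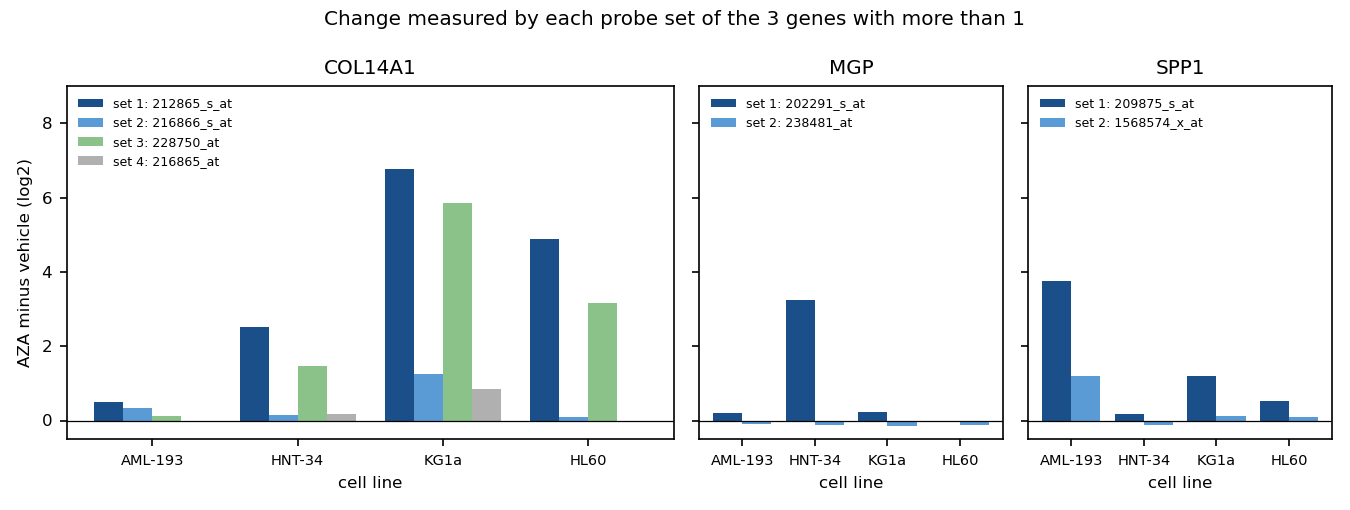
AZA minus vehicle (log2, bars from 0) measured by each probe set of COL14A1, MGP and SPP1 in the 4 lines; set 1 is the one with the highest mean. For COL14A1 sets 1 and 3 reach 6.77 and 5.85 in KG1a and the others 1.24 and 0.84, and the second sets of MGP and SPP1 give smaller values than the first where the first is large.

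COL24A1 encodes a fibril-forming collagen known from bone. Its vehicle level was highest in KG1a, with arrays at 7.43 and 7.49, and low in AML-193 (4.83 and 4.70), HNT-34 (4.83 and 4.47) and HL60 (4.08 and 4.21). The arrays of AML-193 and HNT-34 overlap, HL60 lies below both, and KG1a is the single line above the array median. After AZA the KG1a arrays read 6.51 and 6.07, under both vehicle arrays, a difference of -1.17 ± 0.15. That is rank 4 from the lowest among all genes tested in KG1a. In HNT-34 the AZA arrays read 5.20 and 5.40, above vehicle (0.65 ± 0.15), and in AML-193 4.29 and 4.46, below vehicle (-0.39 ± 0.15). In HL60 they read 4.17 and 4.41 and overlap with vehicle (0.14 ± 0.15). COL24A1 was thus higher in one line and lower in others. The gene has a single probe set here, and the covariate moved its AML-193 value to -0.48 and its HL60 value to 0.20.

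CTHRC1 encodes a secreted glycoprotein with a short collagen-like stretch, known from fibroblasts and vessel walls. With vehicle its arrays read 5.09 and 5.25 in AML-193, 5.43 and 5.13 in KG1a, 4.57 and 4.76 in HL60, and 4.60 and 4.57 in HNT-34. KG1a and AML-193 overlap, as do HL60 and HNT-34, and the first pair lies above the second. With AZA the KG1a arrays lay above this range, at 7.97 and 7.76, a difference of 2.58 ± 0.14, while HNT-34 read 5.30 and 5.53 (0.82 ± 0.14), under the array median. In HL60 the AZA arrays read 5.06 and 4.77 (0.25 ± 0.14) and in AML-193 5.42 and 5.17, which overlaps with vehicle (0.12 ± 0.14). With the covariate these were 0.22 in HL60 and 0.17 in AML-193. In KG1a, CTHRC1, COL14A1 and SPP1 had both vehicle arrays under the array median and both AZA arrays above it.

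LOXL1 encodes a lysyl oxidase that prepares elastin for crosslinking. It was the member with the clearest signal before treatment: the vehicle arrays read 7.97 and 7.73 in HNT-34, 6.98 and 7.06 in KG1a, 6.11 and 6.03 in AML-193, and 5.20 and 5.43 in HL60, and no pair of lines overlaps. With AZA the HNT-34 arrays read 9.53 and 9.60, so the line with the highest vehicle level also had the largest difference (1.71 ± 0.14). KG1a read 7.38 and 7.26 (0.30 ± 0.14), AML-193 5.95 and 5.54, under its vehicle arrays (-0.32 ± 0.14), and HL60 5.26 and 5.59, which overlaps with vehicle (0.11 ± 0.14). The AML-193 value was -0.41 and the HL60 value 0.17 with the covariate.

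Because AZA acts on the methylation of CG dinucleotides, the RefSeq promoter windows of the members (250 bases before to 50 after the transcript start, build GRCh38.p14) were read for CG. Windows were found for 3 of the 7 genes, COL24A1, LOXL1 and SPP1. The 300 bases of LOXL1 hold 17 CG and those of SPP1 hold 6, against a median of 14 over 35116 windows; 54.0% of all windows hold fewer than LOXL1 and 33.7% fewer than SPP1. Each of the 2 COL24A1 windows holds 18. The 250 bases before the start are shown for LOXL1 and SPP1, whose windows lie on either side of the median, each on the plus strand, 5′ to 3′, with every CG in capitals: chr15:73926212-73926461 for LOXL1, with 13 CG, and chr4:87975464-87975713 for SPP1, with 3.
LOXL1: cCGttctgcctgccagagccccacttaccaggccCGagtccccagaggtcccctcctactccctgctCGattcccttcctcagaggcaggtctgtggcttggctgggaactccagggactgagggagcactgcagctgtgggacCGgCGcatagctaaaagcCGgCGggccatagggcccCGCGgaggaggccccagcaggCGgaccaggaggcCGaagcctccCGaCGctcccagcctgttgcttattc
SPP1: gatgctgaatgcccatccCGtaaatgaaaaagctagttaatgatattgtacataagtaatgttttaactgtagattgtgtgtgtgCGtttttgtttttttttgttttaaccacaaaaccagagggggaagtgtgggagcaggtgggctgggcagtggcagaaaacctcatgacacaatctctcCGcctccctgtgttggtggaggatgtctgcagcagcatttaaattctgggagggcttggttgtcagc
The CG of the LOXL1 stretch lie mostly in its second part, towards the start, and those of the SPP1 stretch stand alone. The letters TGANTCA, the site of the AP-1 factors FOS and JUN on either strand, are in none of the 4 member windows and in 7.71% of all windows. MMP1 has no window here, so it was not read for this site, and nothing is drawn from finding none in 4 windows. The CG and TGANTCA counts are descriptions of letters, and no methylation value of these cultures is used here.

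MGP encodes matrix Gla protein, a small vitamin K-dependent inhibitor of calcification. All vehicle arrays of all lines read between 3.62 and 3.97, near the lowest value on any array (3.26), so no order between lines can be drawn. With AZA the HNT-34 arrays read 7.17 and 7.12, and those of the other lines between 3.87 and 4.03. The difference in HNT-34 was 3.25 ± 0.08, rank 19 from the highest in that line, and in the other lines it was 0.19 in AML-193, 0.22 in KG1a and -0.05 in HL60. The HL60 value was 0.03 with the covariate, and both are within 1 standard error of 0. The AML-193 value was 0.07 with it. A second probe set, 238481_at, stayed under the array median on all arrays and gave -0.12 in HNT-34, so the signal of this gene rests on 202291_s_at.

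SPP1 encodes osteopontin, a phosphorylated matrix protein of bone and macrophages that is bound by integrins and CD44. With vehicle its arrays read 7.33 and 7.64 in AML-193, 6.16 and 6.44 in KG1a, 6.45 and 6.44 in HL60, and 5.46 and 5.24 in HNT-34. AML-193 is above the others and HNT-34 below them, and KG1a and HL60 differ by no more than the spread of the KG1a arrays. With AZA the AML-193 arrays read 11.21 and 11.27, those of KG1a 7.68 and 7.32, those of HL60 6.93 and 7.01, and those of HNT-34 5.34 and 5.72. The differences were 3.76 in AML-193, 1.20 in KG1a, 0.52 in HL60 and 0.18 in HNT-34, each ± 0.15, and the arms overlap only in HNT-34. As for LOXL1, the line with the highest vehicle level had the largest rise. COL24A1, highest with vehicle in KG1a, was lower there after AZA (-1.17) and higher in HNT-34 (0.65). The covariate changed the AML-193 value to 3.14 and the HL60 value to 0.92. The second probe set, 1568574_x_at, gave 1.20 in AML-193 and between -0.12 and 0.12 elsewhere, and it reached the array median on no array.

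MMP1 encodes interstitial collagenase, which makes the first cut in fibrillar collagen. With vehicle its arrays read 4.64 and 5.02 in AML-193, 4.68 and 4.66 in HL60, 4.30 and 3.94 in HNT-34, and 4.11 and 4.12 in KG1a. AML-193 and HL60 overlap, and so do HNT-34 and KG1a, at lower values. With AZA the AML-193 arrays read 7.54 and 7.60, a difference of 2.73 ± 0.14 and rank 17 from the highest in that line. The HL60 arrays read 4.23 and 4.32, below vehicle (-0.40 ± 0.14), and in HNT-34 (0.14) and KG1a (0.04) the arms overlap. With the covariate the values were 2.07 in AML-193 and 0.02 in HL60, so the sign in HL60 depends on it. SPP1 and MMP1 thus have their largest difference in the same line, the one whose macrophage markers also moved.

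The tested genes whose pattern over the 16 arrays was nearest to each member were found by the root mean square difference (RMS, log2 units) after each gene's own mean was subtracted. These arrays share lines and treatments, so this is a description. The nearest to COL14A1 were the histidine decarboxylase gene HDC (RMS 1.16), CLC, a protein gene of eosinophils and basophils (1.43), and the potassium channel gene KCNH2 (1.61). HDC differed by 3.43 in KG1a, 2.63 in HL60, 1.73 in HNT-34 and -0.10 in AML-193, the same order of lines as COL14A1 at smaller size. KCNH2 had that order too (2.21, 1.92, 0.34 and 0.29). CLC did not, with 4.42 in KG1a, 6.60 in HL60, 0.27 in HNT-34 and 0.13 in AML-193. The nearest to CTHRC1 were the mast cell tryptase genes TPSAB1 (0.296) and TPSB2 (0.321) and the T cell receptor subunit gene CD3D (0.333), which differed by 2.17, 2.51 and 2.13 in KG1a. MGP was followed most closely by RLN3 (0.126), TUBAL3 (0.187) and MAGEA1 (0.206), with 3.19, 2.75 and 2.68 in HNT-34. MMP1 was nearest to the mannose receptor gene MRC1 (0.351), AOC3 (0.362) and AQP9 (0.401), and SPP1 to CCL7 (0.719), FABP4 (0.832) and OLFM4 (0.836). For LOXL1 they were RAB15 (0.407), NAP1L5 (0.408) and SH2D2A (0.459), and for COL24A1 PGK2 (0.354), RTP4 (0.364) and SH3RF1 (0.389).

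The other genes of the matrix were taken as 10 whole lists from general knowledge, 239 genes in all, of which 226 had a probe set and 147 passed the filter. These are no members, and each was tested with limma over all 14049 genes. Called in either direction were 52 of the 147 in AML-193 (40.9% of all genes tested were called), 42 in HNT-34 (30.2%), 24 in KG1a (9.92%) and 56 in HL60 (41.2%). In AML-193, 39 of the 147 rose and 13 fell, against 20.7% and 20.2% of all genes tested. In HNT-34 29 rose and 13 fell (15.4% and 14.8% of all genes), in KG1a 19 and 5 (6.56% and 3.36%), and in HL60 38 and 18 (25.2% and 16%). These shares of all genes are also the background for the counts of each list below. The median difference of the 147 genes was 0.11 in AML-193, 0.03 in HNT-34, 0.08 in KG1a and 0.11 in HL60, and that of all genes tested 0.02, 0.01, 0.02 and 0.05; after quantile normalization again the HNT-34 median of the 147 was -0.01. With the covariate 8 rose and 0 fell in AML-193, where 373 of all genes were called against 5751 without it. In HL60 23 rose and 3 fell, and 2149 of all genes were called against 5793. Standard errors are wider with the covariate in these lines, so a lost call is not by itself a smaller difference. Quantile normalization again gave 2892 higher and 2785 lower among all genes in HL60, in place of 3541 and 2252. Of the 147 matrix genes 32 were then higher and 22 lower in HL60, in place of 38 and 18. In KG1a the counts without 1 array at a time were as low as 12 higher (without AZA replicate 1) and 1 lower.

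**Figure D4:**
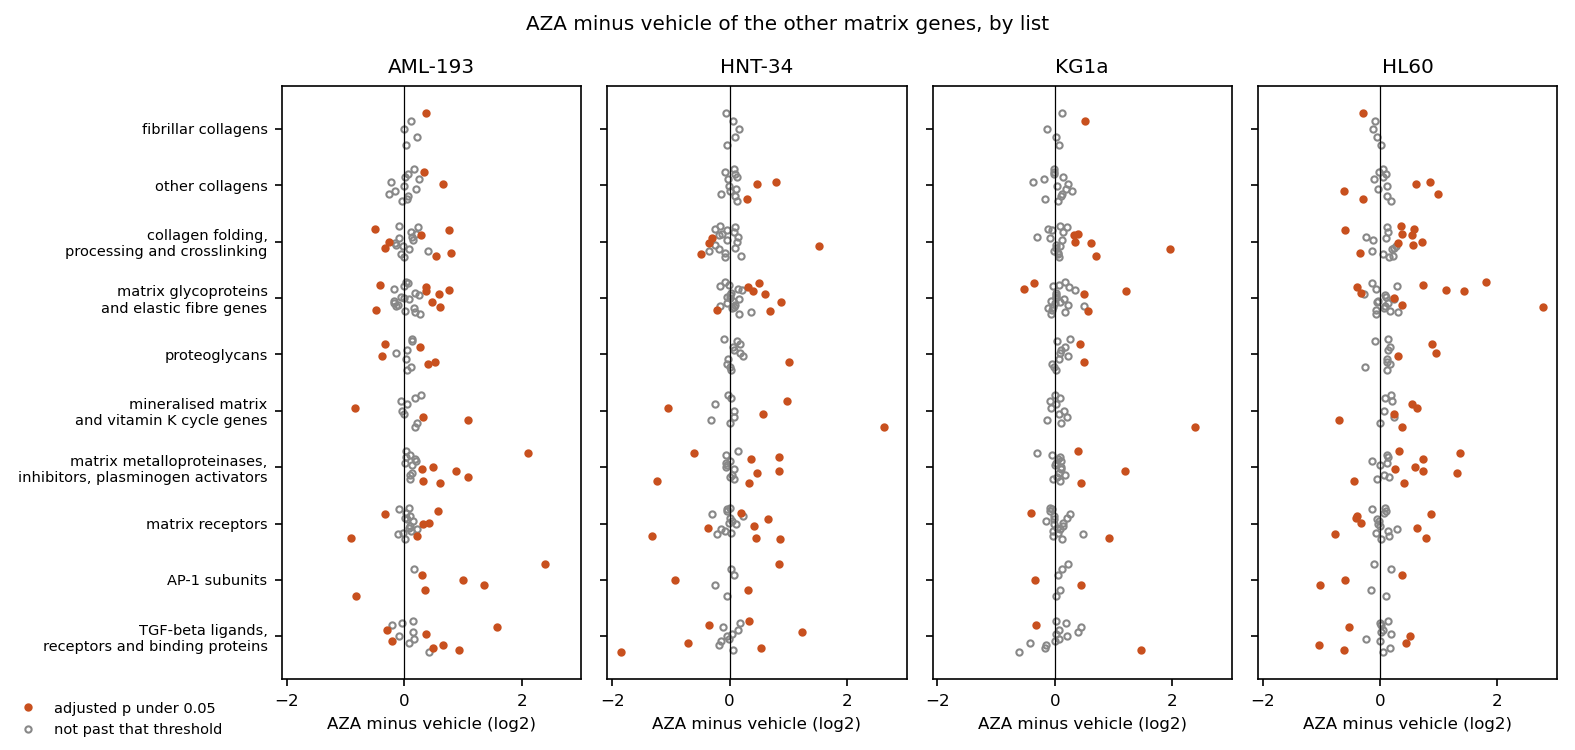
AZA minus vehicle (log2, horizontal axis) of the 147 tested matrix genes that are no members, by list (rows) and line (panels); each point is a gene, filled orange where the limma adjusted p is under 0.05. Most collagens lie near 0 in all lines, and the points farthest from 0 are in the glycoprotein, vitamin K, metalloproteinase, AP-1, collagen processing and TGF-beta rows.

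Of 42 other collagens listed, 41 had a probe set, and the 19 that passed the filter on dim genes were tested. Nothing is said of the rest. Called in either direction were 3 in AML-193 (40.9% of all genes), 3 in HNT-34 (30.2%), 1 in KG1a (9.92%) and 6 in HL60 (41.2%). Of these, 3 rose and 0 fell in AML-193 and in HNT-34, 1 and 0 in KG1a, and 3 and 3 in HL60. All of them were less than 2-fold. The FACIT collagen gene COL9A3, of the same structural class as COL14A1, rose in AML-193 (0.65), HNT-34 (0.47) and HL60 (0.61) and was at 0.23 in KG1a, where its limma adjusted p was 0.0855. COL5A1, a fibril-forming collagen, was the single one that rose in KG1a (0.52, limma adjusted p = 0.00224). COL1A1, the main chain of collagen I, was called at 0.37 in AML-193 and -0.29 in HL60, but neither call held with the covariate (0.25 and -0.22) or with averaged probe sets (-0.05 and -0.12). COL18A1, a collagen of basement membranes, rose in HL60 (0.995, limma adjusted p = 9.92e-05). With the covariate 1 collagen rose and 0 fell in AML-193 (COL9A3, 0.76), and 2 rose and 0 fell in HL60 (COL9A3, 0.54, and COL18A1, 0.95). COL9A3, COL5A1, COL1A1 and COL18A1 were picked after their values were seen. None of these 19 collagens came near the 6.77 of COL14A1 in KG1a. Nothing is read from this, since COL14A1 was chosen on its AZA differences and the 19 were not.

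Of 21 tested genes for collagen folding, processing and crosslinking, 6 rose and 0 fell in KG1a, 7 rose and 2 fell in HL60, 4 and 3 in AML-193, and 1 and 3 in HNT-34. With the covariate the counts were 0 and 0 in AML-193 and 2 and 0 in HL60. ADAMTS3, which trims the amino end of procollagen, rose by 1.97 ± 0.19 in KG1a (limma adjusted p = 1.6e-05). PCOLCE, which speeds the trimming of the other end, rose by 1.53 ± 0.12 in HNT-34 (limma adjusted p = 8.05e-07), the line in which LOXL1 was highest. Of 25 matrix glycoprotein and elastic fibre genes, 6, 6, 3 and 7 rose and 2, 1, 2 and 2 fell in AML-193, HNT-34, KG1a and HL60, and with the covariate 0 rose and 0 fell in AML-193 and 4 and 0 in HL60. In HL60 these included TGFBI, a secreted protein that binds collagen and integrins (2.78 ± 0.11), the fibrillin gene FBN2 (1.81 ± 0.18), and EMILIN2 (1.42 ± 0.08), which encodes an elastic fibre protein. EMILIN2 also rose in KG1a (1.22 ± 0.08). The largest limma adjusted p among these 4 values was 6.66e-06, for FBN2. The TGFBI, FBN2 and EMILIN2 values in HL60 were 3.02, 1.85 and 1.42 with the covariate, and all 3 kept their calls. With averaged probe sets FBN2 was at 0.96 and EMILIN2 at 0.44 in HL60 and 0.61 in KG1a, all still called.

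Of 12 proteoglycan genes 3, 1, 2 and 3 rose and 2, 0, 0 and 0 fell in AML-193, HNT-34, KG1a and HL60, with serglycin, SRGN, a granule proteoglycan of blood cells, at 1.02 ± 0.08 in HNT-34 (0.53 with averaged probe sets). With the covariate 0 proteoglycan genes rose and 0 fell in AML-193, and 3 and 0 in HL60. Of 11 genes of mineralised matrix and the vitamin K cycle, 2, 3, 1 and 4 rose and 1, 1, 0 and 1 fell in the same lines; with the covariate 1 rose and 0 fell both in AML-193 and in HL60. PROS1, which encodes protein S and like MGP carries vitamin K-dependent residues, rose by 2.63 ± 0.12 in HNT-34 and 2.40 ± 0.12 in KG1a (limma adjusted p = 5.26e-09 and 5.43e-08). VKORC1L1, a vitamin K reductase gene, rose by 1.09 ± 0.12 in AML-193, but its limma adjusted p was 0.229 with the covariate and 0.0524 with averaged probe sets. RUNX2, a transcription factor gene of bone formation, fell by 1.04 in HNT-34, but the value was -0.12 and not called when its probe sets were averaged.

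The 17 tested metalloproteinase, inhibitor and plasminogen activator genes rose in 7, 5, 3 and 8 cases and fell in 0, 2, 0 and 1 in AML-193, HNT-34, KG1a and HL60. With the covariate 4 rose and 0 fell in AML-193, and 5 and 0 in HL60. MMP9, which encodes gelatinase B of neutrophils and macrophages, rose in AML-193 (2.11 ± 0.12) and HL60 (1.36 ± 0.12) and fell in HNT-34 (-0.60 ± 0.12), and with the covariate it was at 2.06 in AML-193 and 1.39 in HL60. TIMP1, an inhibitor of these enzymes, rose in all 4 lines, by 1.20 in KG1a, 0.89 in AML-193, 0.84 in HNT-34 and 0.73 in HL60 (limma adjusted p at most 0.000277), but with the covariate it was at 0.26 and not called in AML-193 (limma adjusted p = 0.489) and at 1.13 in HL60. PLAUR, the urokinase receptor gene, picked after its values were seen, was the other gene of this list that rose in every line, by 0.61, 0.33, 0.45 and 0.41 in AML-193, HNT-34, KG1a and HL60, and it was not called in AML-193 with the covariate (0.48) or in HNT-34 with averaged probe sets (0.15). TIMP4 rose by 1.08 ± 0.08 in AML-193 and TIMP2 by 1.31 ± 0.15 in HL60 (0.92 and 1.28 with the covariate, both called), while the urokinase gene PLAU fell by 1.24 in HNT-34. MMP1 and MMP9 were thus both higher in AML-193, while in HL60 MMP9 rose and MMP1 was at -0.40, or 0.02 with the covariate.

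Of 20 matrix receptor genes 4, 5, 1 and 3 rose and 2, 2, 1 and 4 fell in AML-193, HNT-34, KG1a and HL60, and with the covariate 0 and 0 in AML-193 and 3 and 2 in HL60. LAIR1, an inhibitory collagen receptor of leukocytes, fell by 1.32 in HNT-34 (limma adjusted p = 1.44e-08). CD44, which binds osteopontin and was picked after its values were seen, was not called in AML-193 (0.08, limma adjusted p = 0.614), the line with the largest SPP1 difference. Of the integrin genes listed, ITGB1 was called higher in AML-193 (0.42) and ITGA5 lower (-0.33), both also picked after their values were seen. Neither was called there with the covariate (0.04 and 0.06). Of the 7 AP-1 subunit genes, whose products are known regulators of MMP1, 5 rose and 1 fell in AML-193, 2 and 1 in HNT-34, 1 and 1 in KG1a, and 1 and 2 in HL60. In AML-193 this stands against 20.7% of all genes higher and 20.2% lower, and with the covariate 2 rose and 0 fell there and 1 and 1 in HL60. FOS rose by 2.40 ± 0.10, JUN by 1.36 ± 0.12 and FOSL2 by 1.0 ± 0.10 in AML-193, and JUN fell by 1.02 in HL60. Values in other lines, picked after they were seen, did not all go with MMP1. FOS also rose in HNT-34 (0.85 with averaged probe sets) and JUN in KG1a (0.45), where MMP1 was at 0.14 and 0.04. FOSL2 fell in HNT-34 (-0.93), KG1a (-0.34) and HL60 (-0.59), and FOSL1 rose in HL60 (0.61 with the covariate). A link between these genes and MMP1 was not tested. With the covariate FOS (2.13) and JUN (1.64) kept their calls in AML-193, and FOSL2 (0.55) had a limma adjusted p of 0.127. Of 15 TGF-beta ligands, receptors and binding proteins 5, 3, 1 and 2 rose and 2, 3, 1 and 3 fell in AML-193, HNT-34, KG1a and HL60, and with the covariate 0 and 0 in AML-193 and 2 and 0 in HL60. The receptor gene TGFBR2 rose by 1.57 ± 0.13 in AML-193 (limma adjusted p = 0.0647 with the covariate), SMAD7, an inhibitor of the pathway, by 1.47 ± 0.22 in KG1a, and LTBP1, a latent TGF-beta binding protein gene, by 1.23 ± 0.12 in HNT-34, where LRRC32, which docks latent TGF-beta on the cell surface, fell by 1.85. SMAD4 fell by 1.03 in HL60, a call lost when its probe sets were averaged (-0.07) or the covariate was used (-0.46).

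The AZA effect differed between the lines for 76 of the 147 matrix genes (moderated F-test of limma, adjusted over all genes), against 57% of all genes tested. With vehicle alone 116 of the 147 differed between lines, against 85.1% of all genes. Called higher in one line and lower in another were 28 of the 147 (19%), against 20.2% of all genes, and for all 28 the effect also differed by the F-test. Of these 28, 20 were opposite between AML-193 and HL60, the lines whose 3′ minus 5′ signal also moved in opposite directions, and with the covariate 6 of the 28 were still called in both directions.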

How the data were processed

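RNA was measured on 16 Affymetrix arrays. Per the submitters' processing notes the authors used affy and RMA, with versions not given in the sources used here; the deposited values are on a log2 scale (3.26 to 15.3), share the same quantiles on every array to within 0.00404, and were used as deposited. They carry no detection calls, and RMA compresses changes of dim genes. Probe sets were named from the array annotation (41097 with 1 symbol, 1801 with several, 11777 with none). The probe set with the highest mean stood for a gene, and genes at the array median on at least 2 arrays were tested. limma (3.58.1, R 4.3.3) fitted 1 mean per group to all arrays, with Benjamini-Hochberg adjustment at 0.05; having 2 arrays per group limits the precision. The fit was tested on simulated data. Members and lists were chosen with earlier results of these data known. Named list genes are, per list and line, up to 3 called rises and falls of at least 2-fold, and the 3 tested genes nearest in pattern to each member; exceptions are marked in the text. Alternatives were averaged probe sets, renewed quantile normalization, no filter, a variance trend, the RNA integrity covariate and leaving out each array.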

Additional observations from a re-analysis of the deposited data

Results flagged for a closer look

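Several members had AZA arrays wholly above vehicle in one line and wholly below it in another; the difference between lines was not tested, because the AZA responses chose these genes. COL24A1 stood at 0.65 in HNT-34, -0.39 in AML-193 and -1.17 in KG1a. LOXL1 stood at 1.71 in HNT-34, 0.30 in KG1a and -0.32 in AML-193. MGP stood at 3.25 in HNT-34, 0.22 in KG1a, 0.19 in AML-193 and -0.051 in HL60, the last within 1 standard error of 0. MMP1 stood at 2.73 in AML-193 and -0.40 in HL60.

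The AZA effect on 76 of the 147 matrix genes that are no members differed between lines by limma's moderated F-test, against 57% of all genes tested, and 28 (19%) were called in opposite directions, against 20.2% of all genes. The 10 of these with a called change of at least 2-fold are given here, each with its called values. The metalloproteinase gene MMP9 was at 2.11 in AML-193, 1.36 in HL60 and -0.60 in HNT-34, and the urokinase gene PLAU at 0.32 in AML-193, -0.45 in HL60 and -1.24 in HNT-34. Of the AP-1 genes, JUN was at 1.36 in AML-193, 0.45 in KG1a and -1.02 in HL60, and FOSL2 at 1.0 in AML-193, -0.34 in KG1a, -0.59 in HL60 and -0.93 in HNT-34. TGFBR2 was at 1.57 in AML-193 and -0.52 in HL60, SMAD4 at 0.67 and -1.03, and SMAD7 at 0.94 in AML-193, 1.47 in KG1a and -0.61 in HL60. RUNX2 was at 0.63 in HL60, -0.84 in AML-193 and -1.04 in HNT-34, VKORC1L1 at 1.09 in AML-193 and -0.69 in HL60, and LAIR1 at 0.21 in AML-193 and -1.32 in HNT-34. Opposite shifts of the RNA integrity measure were seen in AML-193 and HL60; with it as a covariate MMP9 and JUN were still called in both directions, and the other 8 of the 10 were not. With averaged probe sets RUNX2 was called in no line (-0.15 in AML-193, -0.12 in HNT-34 and 0.06 in HL60). SMAD4 was not called in HL60 (-0.07) and was called lower in AML-193 (-0.19, limma adjusted p = 0.0261). VKORC1L1 in AML-193 (0.51), FOSL2 in KG1a (-0.15) and JUN in KG1a (0.23) also lost their calls.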

How the results depend on the processing

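The 3′ minus 5′ covariate changed most. It is poorly separated from treatment in AML-193 and HL60 and widens the standard errors there, so lost calls are not read as smaller differences. Calls among all genes were 373 in AML-193 and 2149 in HL60, and matrix genes called were 8 in AML-193 (8 higher, 0 lower) and 26 in HL60 (23 higher, 3 lower). It reversed 3 member values, COL14A1 in AML-193 (-0.084), MGP in HL60 (0.029) and MMP1 in HL60 (0.020); the cause was not tested. Without the filter on dim genes 3 matrix genes were lower in KG1a. Leaving out 1 array at a time gave 688 to 1608 calls among all genes in KG1a, and 13 to 26 matrix genes called there, with 12 to 20 higher and 1 to 6 lower; the matrix count of 13 came without AZA replicate 1, and the lowest all-gene counts without KG1a vehicle replicate 1 (877) or AZA replicate 1 (698) or 2 (688). The lower count in KG1a was 3 or fewer without either KG1a array of either arm, either AZA array of AML-193 or HNT-34, or either vehicle array of HL60. Matrix genes lower in AML-193 were 8 to 13, with 8 without AZA replicate 2, and in HNT-34 8 to 17, with 8 without AZA replicate 2. Of 588 member values under alternatives, 569 moved by no more than the spread between replicates, 16 moved by more and 3 reversed. For most of them this outcome was fixed in advance. A member's difference is unchanged without the filter, with the variance trend or without an array of another line. Leaving out 1 of the 2 arrays of a group cannot shift it beyond that spread. Reversal was counted only where the arms did not overlap. These counts are thus no measure of stability. Of 588 values of list genes called at 2-fold or more none reversed and 7 lost their call. Here too, leaving out an array of another line leaves the difference unchanged, so it could not reverse. No paired analysis was possible because the labels give the arrays no replicate numbers. RMA compresses the differences of genes near the background, which limits the members with low vehicle signals.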
